A study of Mus musculus with 12 samples.

Results

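The genes described here are *Apoa1*, *Apoa2*, *Apoa4*, *Apob*, *Apoc2*, *Apoe*, *Apom*, *Mttp*, *Ttr* and *Afp*, which encode apolipoproteins, the protein that loads lipid onto apolipoprotein B, and a pair of serum carriers made by the visceral endoderm. They were found by gene name on the arrays and make up 10 of 34836 gene names, read by 12 of 55681 probes. Mouse embryonic stem (ES) cells of the EB3 line were measured in 4 groups of 3 arrays, and all of them carried Gata6GR (Gata6-GR in the labels), the full mouse Gata6 fused to the ligand-binding part of the human glucocorticoid receptor and driven by the CAG promoter from a piggyBac insertion. Dexamethasone (Dex) lets this fusion protein enter the nucleus. In *Sox7* (+/−) cells the coding exons of 1 *Sox7* allele were replaced by a puromycin cassette. The *Sox7* (−/−) cells were selected from the same cells at a high dose of puromycin, so each genotype is 1 clone. Each genotype was sampled as ES cells and as XEN-like cells, named for extraembryonic endoderm. The latter had Dex for 4 days, ES cells were collected at day 4 without it, and both were kept in medium with LIF. The question was which genes respond to Gata6 when *Sox7* is missing.

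The visceral endoderm is the epithelium around the early embryo and lines the yolk sac. Before the liver and placenta work, it takes up nutrients and exports lipid to the embryo as lipoproteins, and it secretes serum proteins that are later made by the liver. Mttp, the microsomal triglyceride transfer protein, lipidates Apob, which forms the scaffold of each secreted particle. The smaller apolipoproteins ride on these particles and on high density lipoproteins and serve as enzyme cofactors, receptor ligands or carriers. The parietal endoderm, the other derivative of the primitive endoderm, makes basement membrane.

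Each level below comes from an array probe of 60 bases. The probes of *Apom*, *Apoa4* and *Apoe* and the dimmer of both *Apoa2* probes are shown because they carry the strongest contrast, the exon-spanning probe, the most even gene and the probe that differs from its partner. Their letters are in lower case because no part is singled out, and positions are those of mm9 given with the arrays. The *Apom* probe lies at chr17:35267047-35267106 on the minus strand, the *Apoe* probe at chr7:20281732-20281791 on the minus strand and the *Apoa2* probe at chr1:173156320-173156379 on the plus strand. The *Apoa4* probe covers chr9:46049661-46050404 on the plus strand, a stretch longer than the probe, so it joins parts of separate exons.
Apom probe: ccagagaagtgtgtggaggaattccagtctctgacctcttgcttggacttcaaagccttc
Apoa4 probe: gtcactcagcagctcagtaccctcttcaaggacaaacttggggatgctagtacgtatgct
Apoa2 dimmer probe: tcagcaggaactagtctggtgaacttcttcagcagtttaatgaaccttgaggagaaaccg
Apoe probe: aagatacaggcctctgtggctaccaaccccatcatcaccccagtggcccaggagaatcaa

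The 250 bases before and 50 bases after the start of *Apoc2*, *Apom* and *Mttp*, which rose with Dex in *Sox7* (−/−) cells and were not called higher in *Sox7* (+/−) cells, are given from the RefSeq promoter table (build GRCm38.p6, all on the minus strand, at chr7:19677892-19678191, chr17:35131752-35132051 and chr3:138143369-138143668). Capitals mark the letters of 5 motifs searched on both strands, with overlapping matches allowed.
Apoc2 promoter: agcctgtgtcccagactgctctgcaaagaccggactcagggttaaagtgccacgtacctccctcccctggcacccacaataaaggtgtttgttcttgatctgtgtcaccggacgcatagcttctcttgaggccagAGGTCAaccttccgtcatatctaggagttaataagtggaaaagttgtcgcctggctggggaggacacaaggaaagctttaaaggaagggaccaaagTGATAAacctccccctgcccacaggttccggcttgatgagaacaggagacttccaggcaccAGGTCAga
Apom promoter: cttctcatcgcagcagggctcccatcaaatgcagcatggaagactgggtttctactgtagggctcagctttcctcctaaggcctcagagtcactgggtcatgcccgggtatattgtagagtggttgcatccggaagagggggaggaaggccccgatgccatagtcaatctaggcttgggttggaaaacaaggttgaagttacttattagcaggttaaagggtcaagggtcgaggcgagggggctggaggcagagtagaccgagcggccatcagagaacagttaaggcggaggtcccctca
Mttp promoter: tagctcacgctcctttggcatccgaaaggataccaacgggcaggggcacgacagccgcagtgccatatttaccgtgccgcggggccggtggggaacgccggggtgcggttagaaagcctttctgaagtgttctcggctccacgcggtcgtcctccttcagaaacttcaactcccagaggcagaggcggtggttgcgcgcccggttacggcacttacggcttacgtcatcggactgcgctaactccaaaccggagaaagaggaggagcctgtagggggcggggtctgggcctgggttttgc
The motifs were AGATAA and TGATAA for Gata factors, AGGTCA for a nuclear receptor half-site, AACAAT for a Sox core and TATAAA for a TATA box. The *Apoc2* window held TGATAA at -19 to -14 and AGGTCA at -115 to -110 and again at 43 to 48, all on the strand of the gene. The windows of *Apom*, *Mttp* and *Apoa4* held none of these letters. Over the 9 members that were searched, with 12 windows, TGATAA was found in 2 genes (*Apoc2* and *Apoa1*), AGGTCA in 2 (*Apoc2* and *Apoa2*), TATAAA in 4 (*Apoa2*, *Apob*, *Apoe* and *Afp*), and AGATAA and AACAAT in 0. Among all 32851 windows of the table, the shares were 9.05%, 16.3%, 13.6%, 11.2% and 10.7% in that order. A match of letters is a description and not a binding site.

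A level is given as the signal in percent of the signal at the 75th percentile of its array, and differences are on the log2 scale with their standard error (SE) from limma. A gene is read by its brightest probe. A probe entered the test if at least 1 group had it well above background on each of its 3 arrays, and it was called when its Benjamini-Hochberg adjusted p over all 25940 tested probes was under 0.05 and its change over 2-fold. Of the 10 genes, 8 were tested, by 9 probes. The 10 genes were chosen by name and function with earlier results of these arrays in view, so their calls describe these arrays and are no independent test. Where a group was not well above background on any array, a lower bound of the fold is given, set against the lowest signal well above background. These bounds hold for the processing used here only. For Dex in *Sox7* (−/−) cells, other settings brought the log2 difference down to 4.65 for *Ttr* and 1.06 for *Apoa4*. Between the genotypes, *Apoa4* in XEN-like cells came down to 1.09 and *Ttr* in ES cells to -1.08. Each of these is smaller than the bound given below.

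Between 41.7% and 52.3% of spots on an array were well above background. *Sox7*, the targeted gene, measured 224%, 218% and 229% in *Sox7* (+/−) ES cells and 490%, 494% and 688% in *Sox7* (+/−) XEN-like cells. It was not well above background on any *Sox7* (−/−) array (1.48% to 2.57%), at least 24.7-fold lower in ES cells and at least 73.6-fold lower in XEN-like cells. Replicate 3 of the *Sox7* (+/−) XEN-like group stood apart, with 2152 tested probes over 2-fold from the mean of the other 2 arrays, against 172 to 846 on the other 11 arrays. It held less *Ttr* than its partners. Without it, the same members were called in every comparison as with all arrays. The labels do not say whether replicates were separate cultures, and for the *Sox7* (+/−) ES arrays the source label numbers each as replicate 1, so p-values measure only the spread between these arrays.

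Markers set the frame for the members. Of 5 primitive endoderm markers, 4 rose with Dex in each genotype. Among 10 pluripotency markers, 8 fell in *Sox7* (+/−) and 9 in *Sox7* (−/−) cells. With the genotypes in that order, 11.0% and 14.6% of all tested probes were called higher with Dex, and 14.0% and 14.2% lower. *Gata6* was the primitive endoderm marker not called, with Dex differences of 0.27 and 0.37. The primitive endoderm factors *Foxa2*, *Sox17* and *Gata4* rose by 2.31 ± 0.12 (SE), 2.46 ± 0.11 and 1.54 ± 0.10 in *Sox7* (+/−) and by 2.79 ± 0.12, 2.41 ± 0.11 and 1.74 ± 0.10 in *Sox7* (−/−) cells, and the receptor *Pdgfra* by 1.97 ± 0.06 and 1.77 ± 0.06. Of the pluripotency genes, *Nanog* fell at least 581-fold and at least 1351-fold, *Fgf4* at least 406-fold and at least 749-fold and *Sox2* at least 90.2-fold and at least 164-fold. *Esrrb* fell by 8.84 ± 0.09 and 5.49 ± 0.09. Of 7 hepatocyte markers on the array, 0 passed the filter for testing, and *Alb*, which defines that cell type, was not well above background on any of the 12 arrays.

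**Figure D1:**
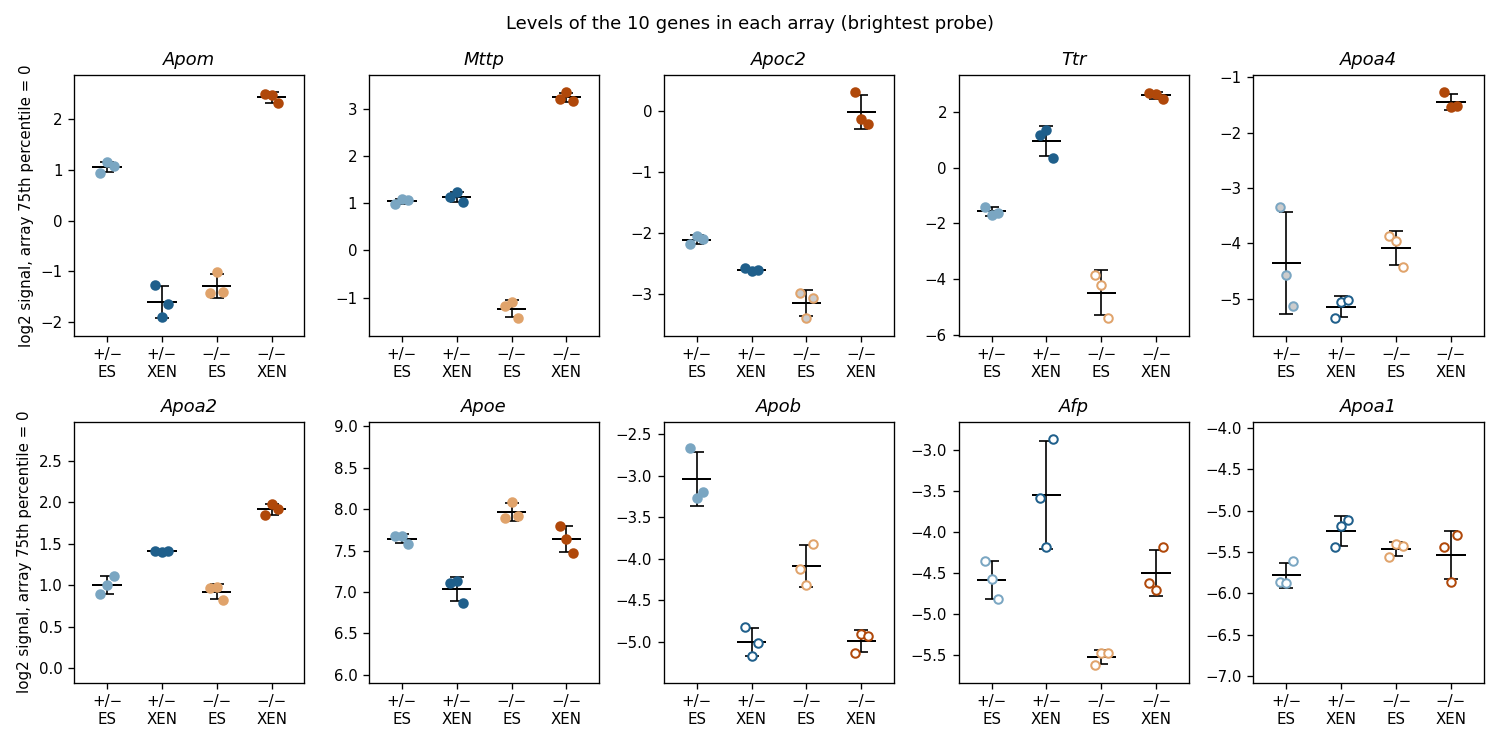
Log2 signal of the brightest probe of each gene on each of 12 arrays, relative to the array's 75th percentile (0). Points are arrays, the bar and whiskers give the mean and SD of 3 arrays, coloured points belong to groups well above background on all 3 arrays, grey-filled points to groups above on some and open points to groups above on none. The y axes differ between panels. In *Apom*, *Mttp*, *Apoc2*, *Ttr*, *Apoa4* and *Apoa2* the 3 *Sox7* (−/−) XEN-like arrays lie above all other arrays.

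*Mttp*, the lipid loading factor, measured 197%, 211% and 208% in *Sox7* (+/−) ES cells and 219%, 235% and 204% in *Sox7* (+/−) XEN-like cells. It measured 44.1%, 47.2% and 37.0% in *Sox7* (−/−) ES cells and 922%, 1016% and 898% in *Sox7* (−/−) XEN-like cells. The *Sox7* (−/−) groups thus lay below and above both *Sox7* (+/−) groups, which overlapped each other. Dex raised *Mttp* by 4.47 ± 0.10 in *Sox7* (−/−) cells. In *Sox7* (+/−) cells the difference was 0.09 ± 0.10, not called, and turned to -0.39 with scaling by the spike-in controls. The order of the levels was *Sox7* (−/−) ES, then both *Sox7* (+/−) groups, which did not differ beyond their spread, then *Sox7* (−/−) XEN-like.

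*Apob*, the particle scaffold that Mttp serves, was not seen to follow it. Its brighter probe measured 15.8%, 10.4% and 10.9% in *Sox7* (+/−) ES cells, the only group well above background. It was at 2.77% to 3.52% in *Sox7* (+/−) XEN-like cells, 5.01% to 7.08% in *Sox7* (−/−) ES cells and 2.83% to 3.34% in *Sox7* (−/−) XEN-like cells. None of these arrays was well above background for it. The lowest signal that was well above background on an array lay between 5.78% and 10.1% of its 75th percentile. *Apob* fell at least 1.29-fold with Dex in *Sox7* (+/−) cells, and it was at least 1.34-fold lower in *Sox7* (−/−) than in *Sox7* (+/−) ES cells. The Dex call was lost with normexp background correction, where the difference was -0.22, and with the deposited table, where it was -0.70. The other *Apob* probe was not well above background on any array.

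*Apom*, a carrier of sphingosine-1-phosphate on high density lipoprotein, moved in opposite directions in the genotypes. It measured 192%, 222% and 209% in *Sox7* (+/−) ES cells and 41.3%, 26.7% and 32.2% in *Sox7* (+/−) XEN-like cells. It measured 37.4%, 49.5% and 37.6% in *Sox7* (−/−) ES cells and 560%, 552% and 493% in *Sox7* (−/−) XEN-like cells. The 3 arrays of each XEN-like group did not overlap those of the ES group of the same genotype, below it in *Sox7* (+/−) and above it in *Sox7* (−/−) cells. Dex lowered *Apom* 6.30-fold (-2.65 ± 0.16) in *Sox7* (+/−) cells and raised it 13.0-fold (3.70 ± 0.16) in *Sox7* (−/−) cells. The lowest levels, in *Sox7* (+/−) XEN-like and *Sox7* (−/−) ES cells, overlapped.

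*Apoc2*, the cofactor of lipoprotein lipase, measured 21.9%, 24.2% and 23.2% in *Sox7* (+/−) ES cells and 16.7%, 16.1% and 16.3% in *Sox7* (+/−) XEN-like cells. It measured 12.6%, 9.45% and 11.95% in *Sox7* (−/−) ES cells and 123%, 90.6% and 85.7% in *Sox7* (−/−) XEN-like cells. In *Sox7* (−/−) ES cells 2 of the 3 arrays were well above background. No group overlapped another, and the order from low to high was *Sox7* (−/−) ES, *Sox7* (+/−) XEN-like, *Sox7* (+/−) ES and *Sox7* (−/−) XEN-like. *Apoc2* rose 8.76-fold (3.13 ± 0.14) with Dex in *Sox7* (−/−) cells, against -0.50 ± 0.14, not called, in *Sox7* (+/−) cells.

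*Apoa4*, an apolipoprotein of newly secreted triglyceride-rich particles, measured 41.4%, 34.5% and 34.8% in *Sox7* (−/−) XEN-like cells, the only group well above background on all its arrays. The other groups were at 2.84% to 9.89% in *Sox7* (+/−) ES cells, 2.45% to 3.08% in *Sox7* (+/−) XEN-like cells and 4.66% to 6.84% in *Sox7* (−/−) ES cells, and in these 1, 0 and 0 arrays were well above background. *Apoa4* rose at least 4.07-fold with Dex in *Sox7* (−/−) cells. In *Sox7* (+/−) cells the difference was -0.79 ± 0.37, not called.

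*Apoa2*, a structural protein of high density lipoprotein, was read by a pair of probes that differ. The brighter probe, at chr1:173156445-173156504, measured 186% to 217% in *Sox7* (+/−) ES, 263% to 267% in *Sox7* (+/−) XEN-like, 176% to 197% in *Sox7* (−/−) ES and 361% to 395% in *Sox7* (−/−) XEN-like cells. The Dex difference was 0.40 ± 0.08 for *Sox7* (+/−) cells. It was 0.998 ± 0.08 for *Sox7* (−/−) cells, and this value, 1.997-fold with an adjusted p of 1.08e-06 by limma, lay just under the 2-fold limit. The dimmer probe, upstream of it, was at 84.6%, 57.3% and 60.3% in *Sox7* (−/−) XEN-like cells and between 1.72% and 9.13% on the other 9 arrays. By this probe *Apoa2* rose at least 7.34-fold with Dex in *Sox7* (−/−) cells. The probes thus gave the same direction in *Sox7* (−/−) cells, different sizes, and opposite signs, neither of them called, in *Sox7* (+/−) cells. Between the XEN-like groups the brighter probe was higher by 0.51 ± 0.08 in *Sox7* (−/−) cells, not called. The dimmer probe was at least 7.07-fold higher there and was called. By the brighter probe the Dex responses differed by 0.59 ± 0.11, not called. By the dimmer probe that difference was called higher in *Sox7* (−/−) cells.

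*Apoe*, the ligand of lipoprotein receptors, changed least among the tested members. It measured 20400%, 20440% and 19190% in *Sox7* (+/−) ES cells and 13800%, 14070% and 11710% in *Sox7* (+/−) XEN-like cells. It measured 23720%, 27270% and 24090% in *Sox7* (−/−) ES cells and 22170%, 19970% and 17790% in *Sox7* (−/−) XEN-like cells. All 4 differences between groups were under 2-fold, from -0.61 ± 0.10 for Dex in *Sox7* (+/−) cells to 0.60 ± 0.10 between the XEN-like groups. The first of these passed the 2-fold limit with spike-in scaling (-1.09) and with the deposited table (-1.05). The last passed it with the deposited table (1.02). *Apoa1*, the main protein of high density lipoprotein, was not well above background on any array, at 1.70% to 2.90%.

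*Ttr*, the carrier of thyroxine and of retinol-binding protein, measured 38.2%, 31.1% and 32.4% in *Sox7* (+/−) ES cells and 229%, 258% and 128% in *Sox7* (+/−) XEN-like cells. It was at 6.98%, 5.44% and 2.36% in *Sox7* (−/−) ES cells, not well above background, and at 646%, 627% and 557% in *Sox7* (−/−) XEN-like cells. *Ttr* was the 1 member called higher with Dex in both genotypes, by 2.54 ± 0.37 in *Sox7* (+/−) cells and, as a lower bound, at least 67.4-fold in *Sox7* (−/−) cells. The low *Sox7* (+/−) XEN-like array is replicate 3, and without it the first value was 2.85. *Afp*, alpha-fetoprotein, a fetal relative of albumin, was not well above background on any array. Its signal lay between 2.03% and 13.8%, highest on replicate 3 of *Sox7* (+/−) XEN-like cells, and it was not tested.

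**Figure D2:**
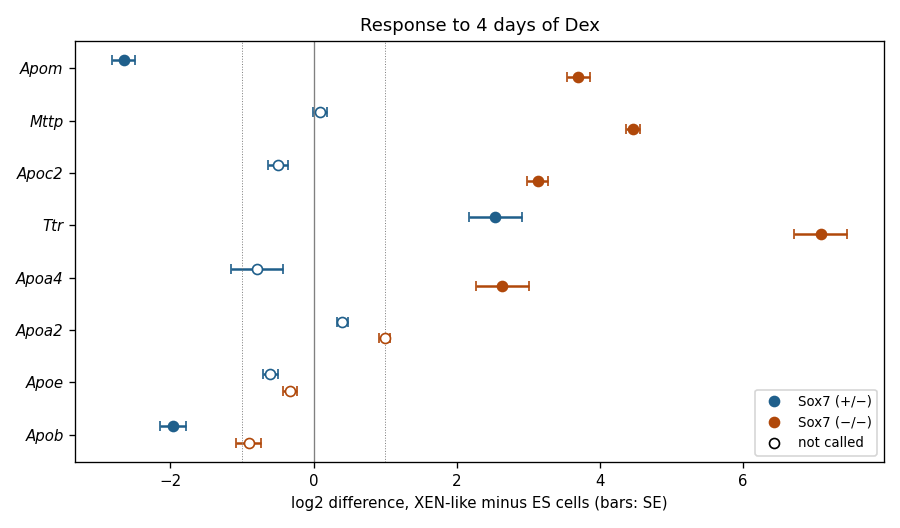
Log2 difference between XEN-like and ES cells (x axis) for the 8 tested genes, *Sox7* (+/−) in blue and *Sox7* (−/−) in orange-brown; points are means of 3 against 3 arrays, bars are SE, open points were not called and dotted lines mark 2-fold. *Apom* lies at -2.65 and 3.70, on opposite sides of 0. Where a group is not well above background (*Ttr*, *Apoa4*, *Apob*) the point is a fitted value and not a bound.

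In *Sox7* (+/−) cells, 1 of the 10 genes was called higher with Dex (*Ttr*) and 2 lower (*Apom* and *Apob*), where 11.0% of all tested probes were called higher and 14.0% lower. In *Sox7* (−/−) cells, 5 were called higher (*Apom*, *Mttp*, *Apoc2*, *Ttr* and *Apoa4*) and 0 lower, where 14.6% of tested probes were called higher and 14.2% lower. The difference between these responses was positive and called for 6 genes, *Apom* (6.35 ± 0.23), *Ttr* (4.55 ± 0.52), *Mttp* (4.38 ± 0.14), *Apoc2* (3.63 ± 0.20), *Apoa4* (3.43 ± 0.52) and *Apob* (1.06 ± 0.25), and negative for 0. Over all tested probes, 6.62% were called higher and 3.17% lower in this comparison. For *Apob* both *Sox7* (−/−) groups were not well above background. Its call was lost with slide as a block (0.91), normexp (0.06), the deposited table (0.48), an intensity trend, and without replicate 1 of *Sox7* (+/−) ES cells (0.87), replicate 2 of *Sox7* (+/−) XEN-like cells (0.98) or replicate 2 of *Sox7* (−/−) ES cells (0.94). Because the members were picked with these contrasts known, nothing is read from how their counts stand to the shares over all probes.

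Between the XEN-like groups, 5 genes were called higher in *Sox7* (−/−) cells by their brightest probe and 0 lower, where 3.86% of tested probes were higher and 3.65% lower. These were *Apom* (16.2-fold, 4.02 ± 0.16), *Apoc2* (6.02-fold, 2.59 ± 0.14), *Mttp* (4.31-fold, 2.11 ± 0.10), *Ttr* (3.10-fold, 1.63 ± 0.37) and *Apoa4* (at least 3.92-fold). *Apoa2* (0.51 ± 0.08) and *Apoe* (0.60 ± 0.10) differed in the same direction and were not called by their brightest probes. Within the second slide, which held 2 *Sox7* (−/−) and 3 *Sox7* (+/−) XEN-like arrays, the values of *Apom*, *Apoc2*, *Mttp* and *Ttr* were 3.99, 2.43, 2.13 and 1.59. For *Apoa4* no difference is given there, since its *Sox7* (+/−) XEN-like arrays were not well above background. For *Ttr* the value was 1.32 without replicate 3 of the *Sox7* (+/−) group.

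Between the ES groups, 5 genes were lower in *Sox7* (−/−) cells and 0 higher, where 6.67% of tested probes were lower and 1.95% higher. They were *Apom* (5.04-fold, -2.33 ± 0.16), *Mttp* (4.83-fold, -2.27 ± 0.10), *Apoc2* (2.05-fold, -1.04 ± 0.14), *Ttr* (at least 3.73-fold) and *Apob* (at least 1.34-fold). *Apoc2* and *Apob* lay close to the 2-fold limit and lost their calls with normexp background correction, quantile normalization, the deposited table or without replicate 2 of *Sox7* (−/−) ES cells, and *Apob* also without replicate 1 of *Sox7* (+/−) ES cells and with slide as a block. All 3 *Sox7* (−/−) ES arrays were on the first slide and all 3 *Sox7* (+/−) ES arrays on the second, and the slides are bridged only by the *Sox7* (−/−) XEN-like arrays. With slide as a block the values of *Apom*, *Mttp*, *Apoc2* and *Ttr* were -2.43, -2.22, -1.52 and -3.04. Thus *Apom*, *Mttp*, *Apoc2* and *Ttr* were lower in *Sox7* (−/−) cells without Dex and higher with it.

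**Figure D3:**
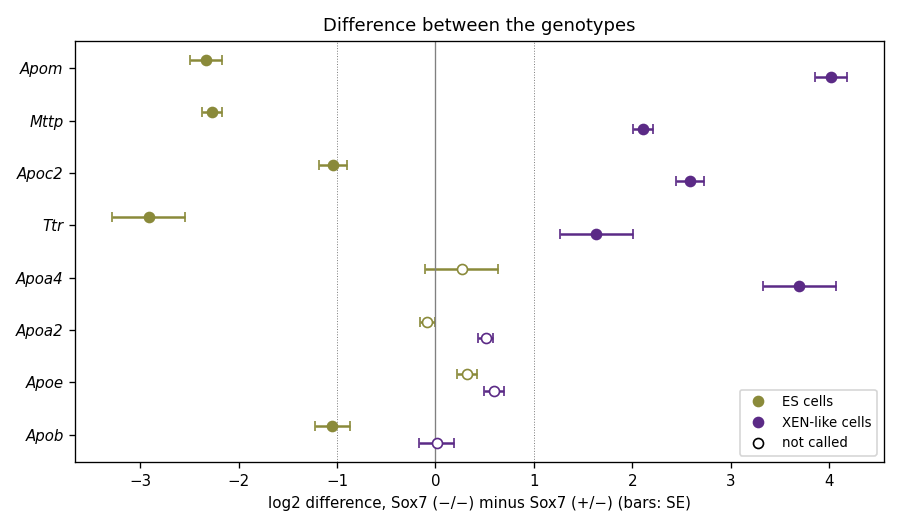
Log2 difference between *Sox7* (−/−) and *Sox7* (+/−) cells (x axis) for the 8 tested genes, ES cells in olive and XEN-like cells in purple; points are differences of means of 3 arrays, bars are SE, open points were not called and dotted lines mark 2-fold. *Apom*, *Mttp*, *Apoc2* and *Ttr* lie below 0 in ES cells and above 0 in XEN-like cells. Points with a group not well above background are fitted values and not bounds.

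Markers of the endoderm types moved beside these genes. The shares of all tested probes are those given above for each comparison. Of 10 visceral endoderm markers, 7 were called higher and 0 lower in the *Sox7* (−/−) XEN-like group against its *Sox7* (+/−) counterpart, and 4 were lower and 0 higher between the ES groups. Their summed signal was 14210% to 14500% in *Sox7* (+/−) ES, 15770% to 22910% in *Sox7* (+/−) XEN-like, 7396% to 8190% in *Sox7* (−/−) ES and 34860% to 37010% in *Sox7* (−/−) XEN-like cells, with each marker detected in each group. *Cubn*, an uptake receptor of this epithelium, was higher by 2.56 ± 0.26 in *Sox7* (−/−) XEN-like cells, *Cdh1*, the epithelial cadherin, by 1.82 ± 0.16, and *Ihh*, a signal made by this layer, by 1.25 ± 0.10. *Dpp4*, a peptidase of its surface, rose with Dex by 2.25 ± 0.08 and 3.95 ± 0.08 and differed by 0.70 ± 0.08, not called, between the XEN-like groups. With Dex, 3 visceral endoderm markers rose and 4 fell in *Sox7* (+/−) cells, and 8 rose and 2 fell in *Sox7* (−/−) cells. *Cdh1* fell in both genotypes, by 3.82 and 2.22, so its higher level in *Sox7* (−/−) XEN-like cells followed a smaller fall. Of 10 pluripotency markers, 2 were higher and 1 lower in *Sox7* (−/−) XEN-like cells, with *Esrrb* higher by 4.63. Of 12 parietal endoderm markers, 0 were higher and 1 lower between the XEN-like groups and 0 and 4 between the ES groups, and their sums were 158200% to 163800%, 383600% to 423600%, 124500% to 133100% and 327200% to 345000% in the same order of groups. The part of cell composition in the members' differences was not tested, and in bulk RNA more cells of a type and more RNA per cell cannot be told apart.

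Several members lie beside other apolipoprotein genes. On chromosome 7 (mm9), the probes of *Apoc2*, *Apoc4*, *Apoc1* and *Apoe* lie in this order within 24.8 kb, chr7:20257027-20281791. *Apoc1*, a regulator of lipoprotein enzymes, fell with Dex in both genotypes, by 2.89 ± 0.12 and 2.94 ± 0.12, where *Apoc2* rose in *Sox7* (−/−) cells and *Apoe* differed by under 2-fold. *Apoc4* was not well above background on any array. On chromosome 9 the probes of *Apoa1*, *Apoc3*, *Apoa4* and *Apoa5* lie within 42.1 kb, chr9:46037921-46080002. The dimmer *Apoc3* probe measured 20.2%, 13.0% and 15.0% in *Sox7* (−/−) XEN-like cells and 2.37% to 5.66% on the other arrays, none of which was well above background for it. Its brighter probe, not tested, measured 9.82% to 13.5% and 2.04% to 9.04% on the same arrays. *Apoc3* was singled out as a neighbour after its values were seen. *Apoa1* and *Apoa5* were not well above background on any array. Thus *Apoc1* and *Apoc2* were called in opposite directions in *Sox7* (−/−) cells, and *Apoc3* and *Apoa4* lay highest on the same 3 arrays. The tested *Apoc3* probe and *Apoa4* passed the filter only through these arrays, so that match is partly set by the filter. The responses of *Apoa1*, *Apoa5* and *Apoc4* are not known from these arrays.

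**Figure D4:**
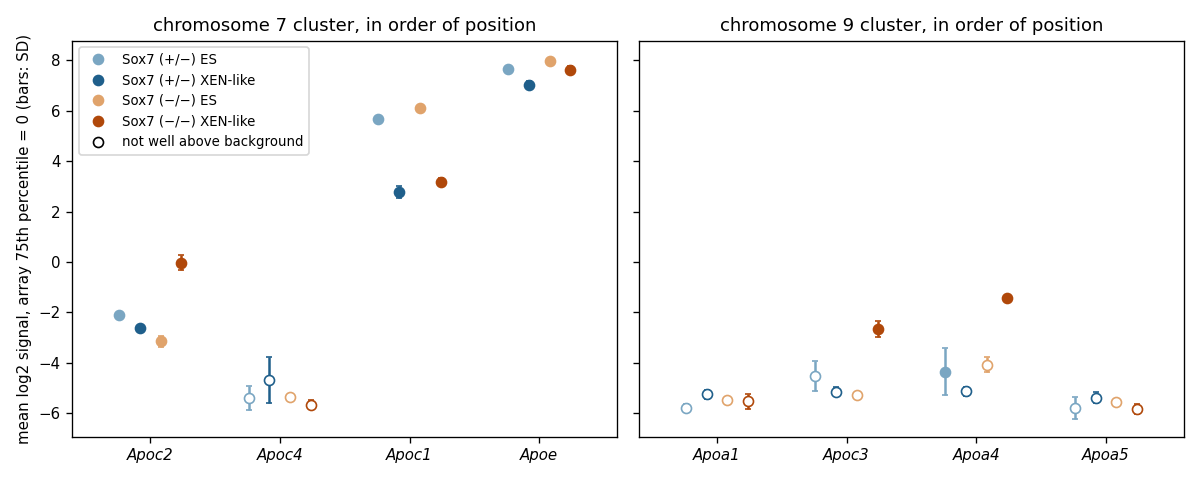
Mean log2 signal, relative to the array's 75th percentile (y axis), of the apolipoprotein genes of the chromosome 7 and chromosome 9 clusters, in order of position (x axis); points are means of 3 arrays, whiskers are SD, and open points mark groups not well above background on any array. Levels of different probes are not comparable. *Apoc2*, *Apoc3* and *Apoa4* have their highest group in *Sox7* (−/−) XEN-like cells, whereas *Apoc1* is lower in both XEN-like groups.

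The other genes of the pathway were described by lists that were also made with earlier results known. Their counts are to be read beside the shares of all tested probes given above for each comparison. Of 9 other plasma apolipoproteins, 3 were tested by their brightest probe. The dimmer *Apoc3* probe was also tested and is not counted here. With Dex, *Apoc1* and *Apod* fell and *Clu* rose in both genotypes. The medians of the tested genes were -2.84 and -2.94, against 0.16 and 0.07 over all tested probes. Between the XEN-like groups 1 of the 3 was called, *Clu*, lower by 1.56 ± 0.14 in *Sox7* (−/−) cells, and 0 were called in the difference of responses.

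Of 15 genes of lipoprotein assembly, 14 were tested. With Dex, 4 rose and 1 fell in *Sox7* (+/−) cells and 8 rose and 0 fell in *Sox7* (−/−) cells. The medians were 0.67 and 1.36, against 0.16 and 0.07 over all tested probes. The difference of responses was called higher for 5 and lower for 0, where 6.62% of all tested probes were higher and 3.17% lower. *Fabp1*, a fatty acid carrier of liver and gut, measured 45.7%, 38.2% and 38.2% in *Sox7* (−/−) XEN-like cells and was not well above background on any other array, which made it at least 4.49-fold higher than in *Sox7* (−/−) ES and at least 4.32-fold higher than in *Sox7* (+/−) XEN-like cells. *Fabp2*, its relative of the gut, rose at least 2.64-fold with Dex in *Sox7* (−/−) cells. Its difference between the XEN-like groups (1.61 ± 0.47) was 0.90 and no longer called without replicate 3 of *Sox7* (+/−) XEN-like cells. *Soat2*, which esterifies cholesterol for particles, fell by 1.39 ± 0.08 in *Sox7* (+/−) cells and differed by 0.92 ± 0.08, not called, in *Sox7* (−/−) cells, a difference of responses of 2.31 ± 0.11. *Surf4*, an export receptor of the endoplasmic reticulum, rose by 1.40 ± 0.08 and 2.07 ± 0.08.

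Of 14 genes of lipoprotein remodelling and uptake, 12 were tested, and with Dex 4 rose and 4 fell in *Sox7* (+/−) cells and 5 rose and 4 fell in *Sox7* (−/−) cells, with medians of 0.14 and 0.63. *Lipg*, an endothelial lipase, rose at least 4.86-fold and at least 2.06-fold. *Abcg1*, a sterol exporter, fell by 4.93 ± 0.46 and 4.35 ± 0.46, and *Pltp*, the phospholipid transfer protein, by 3.16 ± 0.11 and 4.71 ± 0.11. Between the XEN-like groups 3 genes were higher and 1 lower in *Sox7* (−/−) cells.

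Among 23 other serum proteins on the array, 8 were tested. With Dex, 2 rose and 3 fell in *Sox7* (+/−) cells and 2 rose and 4 fell in *Sox7* (−/−) cells. *F2*, prothrombin, measured 257%, 236% and 242% in *Sox7* (+/−) and 1591%, 1427% and 1331% in *Sox7* (−/−) XEN-like cells, a difference of 2.56 ± 0.09. *Rbp4*, the retinol-binding protein that travels with Ttr, rose in both genotypes, by 2.92 ± 0.63 and 3.34 ± 0.63. Its *Sox7* (+/−) XEN-like arrays read 1003%, 1037% and 132%, and the low array is replicate 3. Without it the rise in *Sox7* (+/−) cells was 3.91 ± 0.10, the difference between the XEN-like groups went from 1.06 ± 0.63 to 0.08 ± 0.10 and the difference of responses from 0.42 ± 0.89 to -0.56 ± 0.13, and neither difference was called with or without it. *Fetub* and *Trf*, a protease inhibitor and the iron carrier, fell in both genotypes, by 3.03 ± 0.50 and 3.32 ± 0.50 and by 3.05 ± 0.14 and 3.19 ± 0.14. So the serum genes did not move as 1 group.

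Of 21 regulators of such genes, 20 were tested, and with Dex 6 rose and 6 fell in *Sox7* (+/−) cells and 9 rose and 4 fell in *Sox7* (−/−) cells, with medians of 0.32 and 0.45. *Nr5a2* fell by 4.43 ± 0.35 and 4.68 ± 0.35, *Nr2f1* rose by 3.52 ± 0.22 and 2.13 ± 0.22, *Nr2f2* rose by 2.11 ± 0.22 and at least 2.72-fold, and *Foxa1* fell by 2.17 ± 0.54 and at least 3.83-fold. *Hnf4a*, a factor of visceral endoderm and liver that was singled out after its values were seen, differed with Dex by 0.87 ± 0.10 in *Sox7* (+/−) cells, not called. It rose by 2.88 ± 0.10 in *Sox7* (−/−) cells. Between the XEN-like groups it was higher by 1.43 ± 0.10 in *Sox7* (−/−) cells, where 3 regulators were higher and 2 lower. The lower ones were *Nr2f1* (-1.11 ± 0.22) and *Foxa1*, whose call was lost without replicate 3 of *Sox7* (+/−) XEN-like cells (-0.86).

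The profiles over the 12 arrays, each centred on its mean, were compared with those of 18962 other gene names by the root mean square difference in log2. Nearest to *Apom* were *4933402E13Rik* (0.48), *Slc7a9* (0.62) and *Lgals2* (0.68), where the profile of *Apom* itself had a spread of 1.67 about its mean. Nearest to *Mttp* were *Plac1* (0.31), *Cldn6* (0.34) and *Ctsh* (0.36), and nearest to *Apoc2* were *Pyroxd2* (0.27), *Habp2* (0.31) and *Apoc3* (0.35). *Apoa4* had *Slc9a3* (0.58), *Apoc3* (0.65) and *Gltpd2* (0.68) as its nearest, and *Ttr* had *Ihh* (0.48), *Cited1* (0.54) and *Spns3* (0.64). For *Apoa2* they were *Pcyt2*, *G630025P09Rik* and *Mgrn1* (0.09 each), and for *Apoe* *1190007I07Rik* (0.07), *Snn* (0.08) and *Kifap3* (0.08). For *Apob*, which was near background, they were an unnamed transcript (0.24), *Pde2a* (0.25) and *Susd2* (0.25). *Apoc3* was thus the 1 apolipoprotein among these neighbours, near both *Apoc2* and *Apoa4*. It was compared by its dimmer probe, since its brighter probe was not tested. That probe and *Apoa4* passed the filter only through the *Sox7* (−/−) XEN-like group. Their likeness is thus partly set by the filter, and nothing is read from it.

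**Figure D5:**
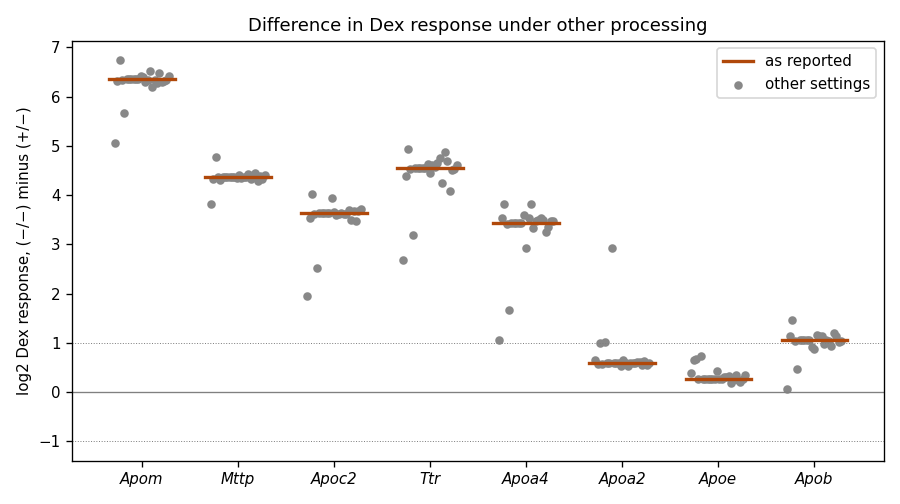
Dex response in *Sox7* (−/−) minus that in *Sox7* (+/−) cells on the log2 scale (y axis) for the 8 tested genes (x axis); the orange-brown line is the value reported and each grey point the value under another processing or without 1 array, and dotted lines mark 2-fold. *Apom* stays between 5.06 and 6.75 and *Mttp* between 3.83 and 4.78, whereas *Apob* runs from 0.06 to 1.46. *Ttr* runs from 2.68 to 4.95, *Apoc2* from 1.95 to 4.03 and *Apoa4* from 1.07 to 3.83.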

How the data were processed

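RNA of 12 samples was hybridised to Agilent 1-colour arrays and read with Agilent Feature Extraction 10.7.3.1, per the labels. The authors deposited per-array processed signal intensity, which is background-corrected by that program, and a value table of intensity that matched the mean signal within 0.498% and was used as an alternative. The 75th percentile signal was 252.3 to 415.9 per array, 0 spots were saturated, and the number of arrays limits the precision. From the log2 processed signal each array's 75th percentile was subtracted, flagged outlier spots were left out (12 readings of member probes) and spots of a probe were averaged. One limma 3.58.1 fit (R 4.3.3) with a mean per group held all 12 arrays. Probes well above background on every array of at least 1 group were tested, with Benjamini-Hochberg adjusted p under 0.05 and over 2-fold as the limits. The limma step was tested on simulated data.

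All members were named, by their brightest probe, as were *Sox7*, up to 4 called genes of each other list with the largest changes (all, where 5 or fewer were called) and the 3 nearest profiles; exceptions are stated where they occur. The lists were other plasma apolipoproteins, lipoprotein assembly, remodelling and receptors, other serum proteins, regulators, and markers of visceral, parietal and primitive endoderm, pluripotency, hepatocytes, mesendoderm, trophoblast and fibroblasts. Members and lists were chosen with earlier results of these data known. Promoter sequences came from RefSeq. Alternatives were other background corrections, scalings, filters, probe summaries, blocks and leaving out each array. Some genes of these lists are not reported here by name.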

Additional observations from a re-analysis of the deposited data

Results flagged for a closer look

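The Dex response differed between the genotypes for 6 of the 8 tested genes by the interaction term of the limma fit across all probes. The difference, *Sox7* (−/−) minus *Sox7* (+/−) on the log2 scale, was 6.35 for *Apom*, 4.55 for *Ttr*, 4.38 for *Mttp*, 3.63 for *Apoc2*, 3.43 for *Apoa4* and 1.06 for *Apob*. *Apom* is the 1 gene of these that was called in opposite directions in the genotypes. For *Ttr* 1 of the 4 groups was not well above background on any array, for *Apoa4* 2 of the 4, with 1 array above in a further group, and for *Apob* 3 of the 4, so these are fitted values and not bounds. The call of *Apob* was lost in 7 of the other settings, among them slide as a block (0.91, adjusted p = 0.0808) and normexp background correction (0.06, adjusted p = 0.708). The genes were chosen with this pattern known.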

How the results depend on the processing

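The numbers of members called were 3, 5, 5, 5 and 6 for the Dex response in *Sox7* (+/−) cells, that in *Sox7* (−/−) cells, the XEN-like groups, the ES groups and the difference of responses. With a filter on all arrays, which tests 4 of the genes, they were 1, 2, 2, 2 and 2. Spike-in scaling gave 5 in the first. The ES groups gave 3 with normexp, quantile normalization or the deposited table. Leaving out each array gave 3 to 4, 5 to 7, 5 to 5, 3 to 5 and 5 to 6, with 3 for the ES groups without replicate 2 of *Sox7* (−/−) ES cells. Of the single-gene results under other settings, 893 kept direction and call, 15 gained and 19 lost a call and 13 changed sign. No called value changed sign. In *Sox7* (+/−) cells the Dex value of *Apoa2* was -0.0786 with spike-in scaling, -0.0958 with the deposited table and -0.0777 with the mean of its probes, and that of *Mttp* was -0.39 with spike-in, -0.019 with median scaling and -0.36 with the deposited table. Between the XEN-like groups *Apob* was -0.21 with normexp, -0.0543 with median scaling and -0.0717 to 0.0998 with an array left out. Between the ES groups *Apoa2* was 0.0164 with slide as a block, and *Apoa4* ran from -0.13 to 0.77 with an array left out. The causes were not tested. The median of all probes moved from 0.16 to -0.33 (spike-in) and -0.23 (deposited table) for Dex in *Sox7* (+/−) cells, from 0.00 to 0.24 and 0.34 between the XEN-like groups and from -0.09 to 0.31 and 0.24 for the difference of responses. The share of called probes that were higher moved with it, from 44.1% to 18.8% and 19.6%, from 51.4% to 76.4% and 89.9%, and from 67.6% to 89.6% and 89.5%, and with no filter the last was 34.8%. Replicate numbers are shared by the groups, but samples with the same number did not deviate together (r -0.0508 to 0.126), and the replicate block left 3, 5, 5, 5 and 6 called. Blocking on slide gave 3, 6, 5, 4 and 5 called, and values within a slide equal those with the block.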

Other observations

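Markers of other cell types were measured beside these genes. The shares of all tested probes are those given with the members for each comparison. Of 7 mesendoderm and definitive endoderm markers 4 were tested, and with Dex 0 rose and 3 fell in *Sox7* (+/−) cells and 1 rose and 2 fell in *Sox7* (−/−) cells. *Hhex* rose by 2.06 ± 0.13 in *Sox7* (−/−) cells, *Eomes* fell by 1.85 ± 0.09 in *Sox7* (+/−) cells, and *Gsc* fell at least 1.57-fold and at least 2.06-fold. *T* fell at least 6.98-fold in *Sox7* (+/−) cells and was also called in *Sox7* (−/−) cells, where neither group was well above background. The summed signal of the list was 387% to 543% of the 75th percentile in *Sox7* (+/−) and 811% to 933% in *Sox7* (−/−) XEN-like cells. In both XEN-like groups 5 of the 7 markers (*T*, *Mixl1*, *Gsc*, *Cer1* and *Cxcr4*) were not well above background on any array. These sums thus rest on *Eomes* and *Hhex*. Between the XEN-like groups *Eomes* was called higher in *Sox7* (−/−) cells (1.89), and *Hhex* differed by 0.84, not called.

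Of 5 trophoblast markers 4 were tested. Between the ES groups 3 were lower and 0 higher in *Sox7* (−/−) cells, between the XEN-like groups 2 were higher and 0 lower, and in the difference of Dex responses 3 were higher. Their sums were 633% to 661% in *Sox7* (+/−) ES, 164% to 241% in *Sox7* (+/−) XEN-like, 292% to 321% in *Sox7* (−/−) ES and 388% to 417% in *Sox7* (−/−) XEN-like cells. *Gata3* was lower by 1.97 ± 0.20 between the ES groups and higher by 1.22 ± 0.20 between the XEN-like groups, and its Dex responses differed by 3.20 ± 0.29. *Cdx2* was lower by 2.12 ± 0.36 between the ES groups and at least 1.13-fold higher between the XEN-like groups. *Krt7* was lower by 2.50 ± 0.28 between the ES groups and differed by 0.89 ± 0.28, not called, between the XEN-like groups. *Tfap2c* fell with Dex in both genotypes, by 2.68 ± 0.14 in *Sox7* (−/−) cells. The part of such cells in the members' differences was not tested.

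Of 5 fibroblast markers 4 were tested, and with Dex 0 rose and 3 fell in *Sox7* (+/−) and 0 rose and 2 fell in *Sox7* (−/−) cells. *Col1a1* fell at least 9.26-fold and at least 24.8-fold, *Thy1* at least 18.9-fold and at least 24.4-fold, and *Col1a2* fell by 1.94 ± 0.11 in *Sox7* (+/−) cells. Their sums were 44.4% to 80.8% in *Sox7* (+/−) and 48.2% to 55.2% in *Sox7* (−/−) XEN-like cells. Of 12 parietal endoderm markers, 10 rose in *Sox7* (+/−) and 9 in *Sox7* (−/−) cells with Dex, and 0 fell in either. *Fst*, *Thbd*, *Pth1r* and *Plat* rose by 5.09 ± 0.10, 3.50 ± 0.12, 2.19 ± 0.08 and 3.03 ± 0.14 in *Sox7* (+/−) cells. In *Sox7* (−/−) cells they rose by 5.93, 5.42, 4.28 and 3.92. The difference of responses was called higher for 2 of the 12, *Thbd* (1.92) and *Pth1r* (2.09), and lower for 1, *Vim* (-1.22). Over all tested probes 6.62% were higher and 3.17% lower in that comparison. Without replicate 3 of the *Sox7* (+/−) XEN-like group, left out after seeing the data, the calls of the visceral and primitive endoderm markers were the same. *Vim*, a parietal endoderm marker, was then also called higher with Dex in *Sox7* (+/−) cells, *Hhex* higher between the XEN-like groups (1.02) and *Tfap2c* higher in the difference of responses (1.07). The pluripotency marker *Pou5f1* became called higher in *Sox7* (−/−) XEN-like cells (1.84, against 1.37 with all arrays), and *Tdgf1* lost its call in the difference of responses (-0.78, against -1.09). *Col3a1*, a fibroblast marker, became called lower with Dex in *Sox7* (−/−) cells, where its XEN-like arrays were not well above background. These are named because their calls changed.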
